A study of Homo sapiens with 6 samples.

Results

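The genes described here are the 8 members of the metallothionein system named MT1A, MT1E, MT1F, MT1G, MT1M, MT1X, MT2A and MTF1, which were taken by symbol from a table of 54308 genes. All 8 were listed, had a value in every library and were tested, among 19306 genes that had at least 2 values in each group. RNA was sequenced from 143B, an established human osteosarcoma cell line. The 3 control libraries (VC) came from cells transfected with a vector plasmid, and the 3 knockout libraries (KO) came from cells in which CNTNAP4, a neurexin family transmembrane protein, had been targeted with CRISPR/Cas9. The labels give 48 h of transfection for both groups, while the study's methods give a longer incubation, after which RFP-positive cells of both transfections were sorted singly and colonies were grown. The labels do not say which colony a library came from, so the deletion and the colony cannot be told apart, and p-values measure the spread between these libraries, which may be technical.

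The deposited values are log2 signals that the authors had normalized between libraries, so that every library had the same median of 0.62. The linear unit is not given in the sources used here, so signals were not compared between genes beyond their rank within a library, which also reflects transcript length if the unit does not correct for it, and the depth of each library is unknown. Between 20333 and 21041 genes had a value in a library, and libraries correlated across genes at 0.990 to 0.992 within VC, 0.985 to 0.990 within KO and 0.964 to 0.981 between the groups. CNTNAP4 itself had a value only in VC replicate 3, at -7.18, so the table gives no check of the deletion. The study reports that qRT-PCR, western blot and an endonuclease assay showed the deletion in its clones. The 6 osteosarcoma and osteoblast lineage genes had a value in all 6 libraries, with 3 called higher in KO (COL1A1, SPARC and ALPL), 1 called lower (COL1A2, from -4.81 to -5.62) and VIM and RUNX2 not called. Of these COL1A2 and ALPL stayed below 0 in every library, and the leukocyte marker PTPRC did not exceed -4.35. Among the other marker genes, the lysosomal CD68 was called higher in KO (log2 fold change 1.66, adjusted p = 0.00963), the simple-epithelial keratin KRT8 was called higher (0.59, adjusted p = 0.0135) and the epithelial adhesion gene EPCAM was called lower (-0.67, adjusted p = 0.0157). Their part in the results on the metallothioneins was not tested.

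Metallothioneins are small cytosolic proteins whose many cysteines hold zinc, copper and, on exposure, cadmium. Their genes are switched on by metals through MTF1, a zinc finger transcription factor that senses zinc and binds metal response elements (MREs) in their promoters, and several of them also respond to glucocorticoids and oxidants. MT2A is the main form in many human tissues, and the MT1 genes are a local expansion whose members differ in their basal level and in how they are induced.

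The 7 metallothionein genes lie together on chromosome 16 (GENCODE release 29, GRCh38). MT2A spans chr16:56608199-56609497, MT1E chr16:56625475-56627112, MT1M chr16:56632233-56633986, MT1A chr16:56638666-56640087, MT1F chr16:56657694-56660698, MT1G chr16:56666731-56668065 and MT1X chr16:56682424-56684196, of which only MT1G is on the minus strand. Each has 3 exons and a coding sequence of 183 bases without the stop codon, or 61 codons, of which 20 encode cysteine. MTF1 lies apart, at chr1:37809567-37859620 on the minus strand, with 11 exons and 753 codons, of which 21 encode cysteine.

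The coding sequences of MT1M and MT1E, the members that fell, and of MT2A are printed because they show how closely the genes resemble each other, which bears on how reads can be assigned to them. They are the reference coding sequences, 5′ to 3′ without the stop codon, with cysteine codons in capitals.
MT1M: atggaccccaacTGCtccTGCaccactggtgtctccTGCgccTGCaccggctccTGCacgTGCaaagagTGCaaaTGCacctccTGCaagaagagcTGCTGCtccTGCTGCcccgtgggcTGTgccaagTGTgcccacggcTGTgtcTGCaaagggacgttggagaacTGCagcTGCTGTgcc
MT1E: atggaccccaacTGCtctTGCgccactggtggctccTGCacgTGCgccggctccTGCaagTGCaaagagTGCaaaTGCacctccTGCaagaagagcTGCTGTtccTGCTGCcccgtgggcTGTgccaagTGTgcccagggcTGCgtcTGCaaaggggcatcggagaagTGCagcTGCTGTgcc
MT2A: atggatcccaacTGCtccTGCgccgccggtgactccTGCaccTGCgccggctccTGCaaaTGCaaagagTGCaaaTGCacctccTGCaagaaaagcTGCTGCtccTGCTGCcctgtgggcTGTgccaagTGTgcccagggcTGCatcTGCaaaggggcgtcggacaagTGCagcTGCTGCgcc

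Over the 21 pairs of the 7 coding sequences, identity ran from 88.5% (MT1F and MT1X) to 95.1% (MT1G and MT2A). MT1M and MT1E shared 92.3% of bases and MT1M and MT2A 89.6%. Along whole transcripts, most windows had no exact match in another gene. Windows that differ from another transcript by a base were not counted as shared. Of all 50-base windows of the transcript, 7.1% in MT1M, 5.3% in MT1E, 5.8% in MT1A, 4.9% in MT2A and 3.6% in MT1F also occurred in a transcript of another gene. The share was 20.2% in MT1G and 45.1% in MT1X, and it was still 31.6% in MT1X with windows of 75 bases, mostly through the annotated transcript AC026461.1. The read length and the treatment of reads with several matches are not given in the sources used here. By this count of exact matches, the values of MT1X and MT1G are the least certain, and 0.6% of 50-base windows were shared in MTF1.

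In KO cells, MT1M and MT1E fell and MT1A rose, while MT2A, MT1X, MT1F, MT1G and MTF1 did not pass the test. Thus 1 member was called higher and 2 were called lower by limma at an adjusted p under 0.05, beside 32.9% of all tested genes called in either direction, 13.1% called higher and 19.8% called lower. The share of members called, 3 of 8, was near that background. Over all genes 2526 were higher and 3828 lower, and the split was 3005 to 3233 after median-centring and 3092 to 3301 after a further quantile normalization, while the members had 1 higher and 2 lower calls under both. The groups did not overlap for MT1M, MT1E, MT1A and MTF1, beside 59.3% of the 17698 genes with 6 values. The median log2 fold change was -0.13 over the 8 members and -0.02 over the 7 metallothioneins, against -0.13 over all genes tested. Which cells gave the RNA cannot be resolved in these bulk libraries, in which fewer cells with a transcript and less of it per cell cannot be told apart.

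**Figure D1:**
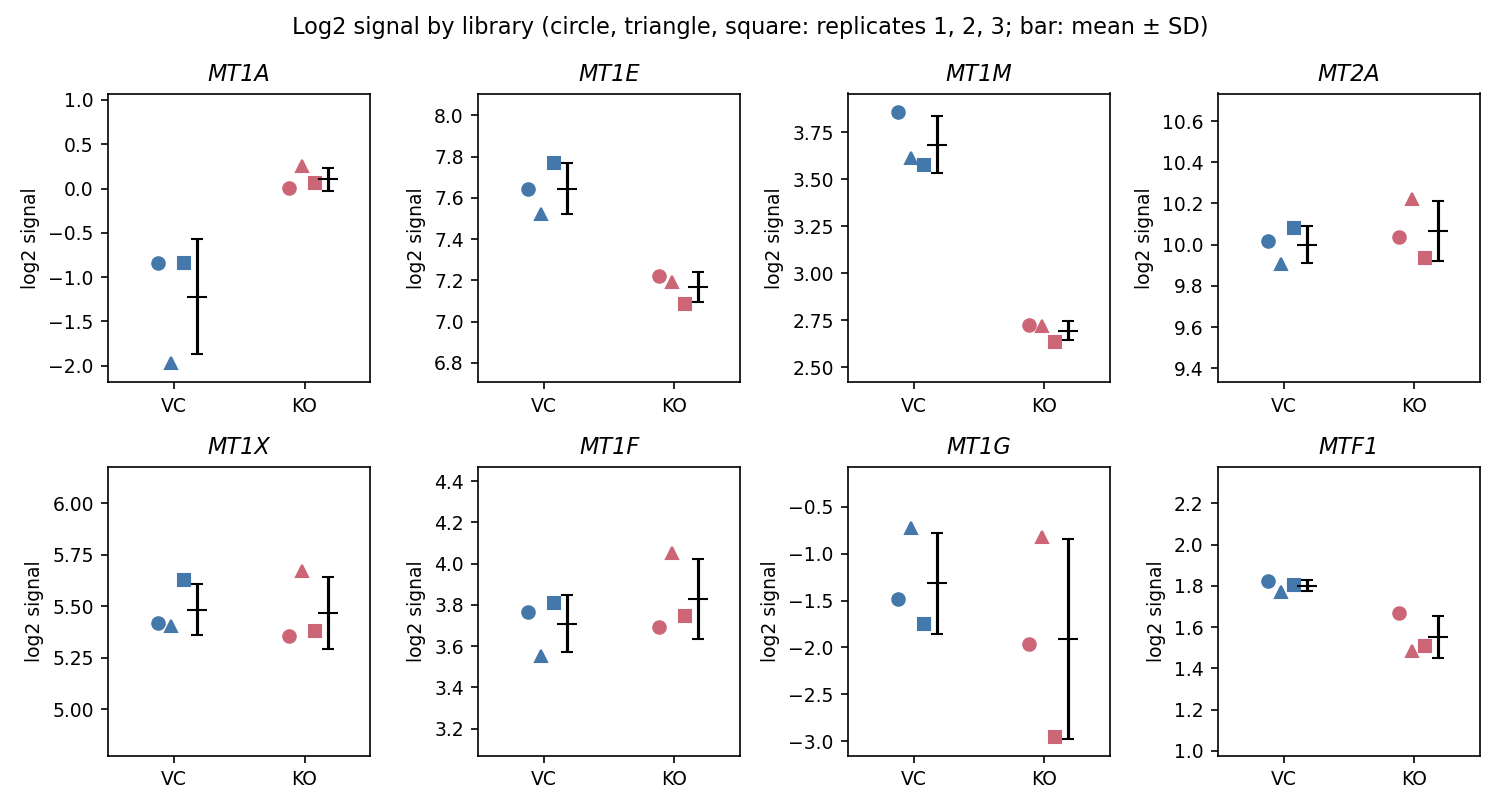
Log2 signal (y axis, a different range in each panel) of the 8 genes in the VC (blue) and KO (red) libraries, with circles, triangles and squares for replicates 1, 2 and 3 and bars for the mean ± SD (n = 3). MT1M and MT1E are lower and MT1A is higher in every KO library than in any VC library, and the groups of MT2A, MT1X, MT1F and MT1G overlap.

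MT1M had the lowest adjusted p of the members. Its log2 signal was 3.86, 3.62 and 3.58 in VC and 2.73, 2.72 and 2.64 in KO, with replicates 1, 2 and 3 always given in that order. The 3 KO libraries lay within 0.090 of each other, and all were below the lowest VC library. The mean was 3.68 ± 0.15 (SD, n = 3) in VC and 2.69 ± 0.051 in KO, a log2 fold change of -0.99 (SE 0.099, 95% interval -1.24 to -0.74), so the signal was 1.98-fold higher in VC (limma, adjusted p = 0.00815). MT1M was called in all 6 fits that left out 1 library, with log2 fold changes from -1.04 to -0.90 and a highest adjusted p of 0.0396, without VC replicate 3.

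MT1E, whose gene is next to MT1M among the members, moved the same way by a smaller step. Its log2 signal was 7.65, 7.52 and 7.77 in VC and 7.22, 7.19 and 7.09 in KO. The lowest VC library was still above the highest KO library. The mean was 7.65 ± 0.12 (SD, n = 3) in VC and 7.17 ± 0.071 in KO, a log2 fold change of -0.48 (SE 0.092, 95% interval -0.71 to -0.25), or 1.39-fold higher in VC (limma, adjusted p = 0.0201). The call was lost without VC replicate 1 (adjusted p = 0.0715), without VC replicate 3 (0.0701) and without KO replicate 3 (0.0665), with log2 fold changes from -0.54 to -0.42 over the 6 such fits.

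MT1A moved in the opposite direction and had a low signal. Its log2 signal was -0.84, -1.97 and -0.84 in VC and 0.0087, 0.25 and 0.058 in KO. VC replicate 2 was 1.13 below the highest VC library, whereas the KO libraries lay within 0.24 of each other. The mean was -1.22 ± 0.65 (SD, n = 3) in VC and 0.11 ± 0.13 in KO, a log2 fold change of 1.32 (SE 0.34, 95% interval 0.48 to 2.17), or 2.50-fold higher in KO (limma, adjusted p = 0.0365). In the libraries its signal ranked between the 27.6 and 43.3 percentile of the tested genes. The log2 fold change was 0.95 without VC replicate 2, where the call held (adjusted p = 0.0333). The call was lost without VC replicate 1 (0.0668), VC replicate 3 (0.0685), KO replicate 1 (0.0550), KO replicate 2 (0.0935) or KO replicate 3 (0.0910). When 1 was added to the linear signal, which shrinks changes of low genes, the difference shrank to 0.52 at an adjusted p of 0.0146, and without variance moderation the call was lost (adjusted p = 0.0743).

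**Figure D2:**
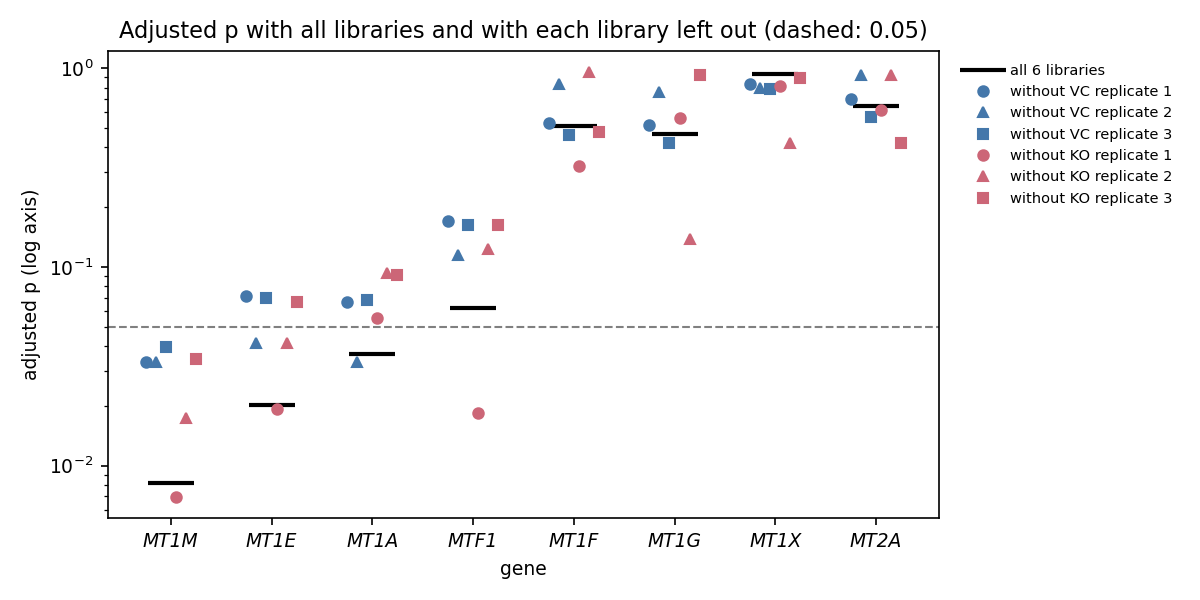
Adjusted p from limma (log y axis) for the 8 genes (x axis) with all 6 libraries (black bars) and with 1 VC (blue) or KO (red) library left out, the symbol giving the replicate. MT1M stays under the dashed line at 0.05 in all 6 such fits, MT1E in 3, and MT1A and MTF1 in 1 each.

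MT2A, the form that leads in many tissues, differed little between the groups. Its log2 signal was 10.02, 9.90 and 10.08 in VC and 10.04, 10.22 and 9.94 in KO. KO replicate 2 was the highest library and VC replicate 2 the lowest, and the groups overlapped. The log2 fold change was 0.07 (SE 0.10, 95% interval -0.20 to 0.33, limma adjusted p = 0.650), and it was -0.01 without KO replicate 2. The interval allowed a KO signal between 0.873 and 1.25 times that of VC. In every library MT2A ranked above 99.7% of the tested genes.

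MT1X gave 5.42, 5.41 and 5.63 in VC and 5.36, 5.67 and 5.38 in KO, again with overlapping groups. Its log2 fold change was -0.02 (95% interval -0.32 to 0.29, limma adjusted p = 0.931), and the sign turned under median-centring (0.07) and under a further quantile normalization (0.01). MT1F gave 3.77, 3.55 and 3.81 in VC and 3.69, 4.05 and 3.75 in KO, a log2 fold change of 0.12 (95% interval -0.21 to 0.45, limma adjusted p = 0.510) that was 0.0092 without KO replicate 2, 0.04 without VC replicate 2, 0.19 without KO replicate 1 and 0.20 after median-centring. KO replicate 2 was the highest KO library for MT2A, MT1X, MT1F and MT1G, whose groups all overlapped, and also for MT1A, whose groups did not.

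MT1G, the member on the opposite strand, was the most variable. Its log2 signal was -1.48, -0.72 and -1.75 in VC and -1.96, -0.82 and -2.95 in KO. The KO libraries spread over 2.13 and the VC libraries over 1.03. The log2 fold change was -0.59 (SE 0.60, 95% interval -2.10 to 0.91, limma adjusted p = 0.469), an interval that includes a difference of the size seen for MT1M. Leaving out 1 library moved the log2 fold change from -1.14, without KO replicate 2, to -0.07, without KO replicate 3, with no call in any of these fits, and it was -0.12 with 1 added to the linear signal. With this spread a difference of that size could not be detected.

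MTF1, the metal-sensing activator of the other 7 genes, was lower in each KO library but missed the threshold. Its log2 signal was 1.83, 1.77 and 1.80 in VC and 1.67, 1.48 and 1.51 in KO. The VC libraries lay within 0.054 of each other and the KO libraries within 0.19, and the groups did not overlap. The mean was 1.80 ± 0.027 (SD, n = 3) in VC and 1.55 ± 0.10 in KO, a log2 fold change of -0.25 (SE 0.079, 95% interval -0.45 to -0.05), or 1.19-fold higher in VC (limma, adjusted p = 0.0622). It passed the threshold without KO replicate 1 (log2 fold change -0.31, adjusted p = 0.0183), with 1 added to the linear signal (0.0232), among genes in the upper 50% of mean signal (0.0203) and under moderation with trend and robust estimation (0.0490). The adjusted p was 0.105 after median-centring, where the log2 fold change was -0.16, and 0.170 without VC replicate 1.

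**Figure D3:**
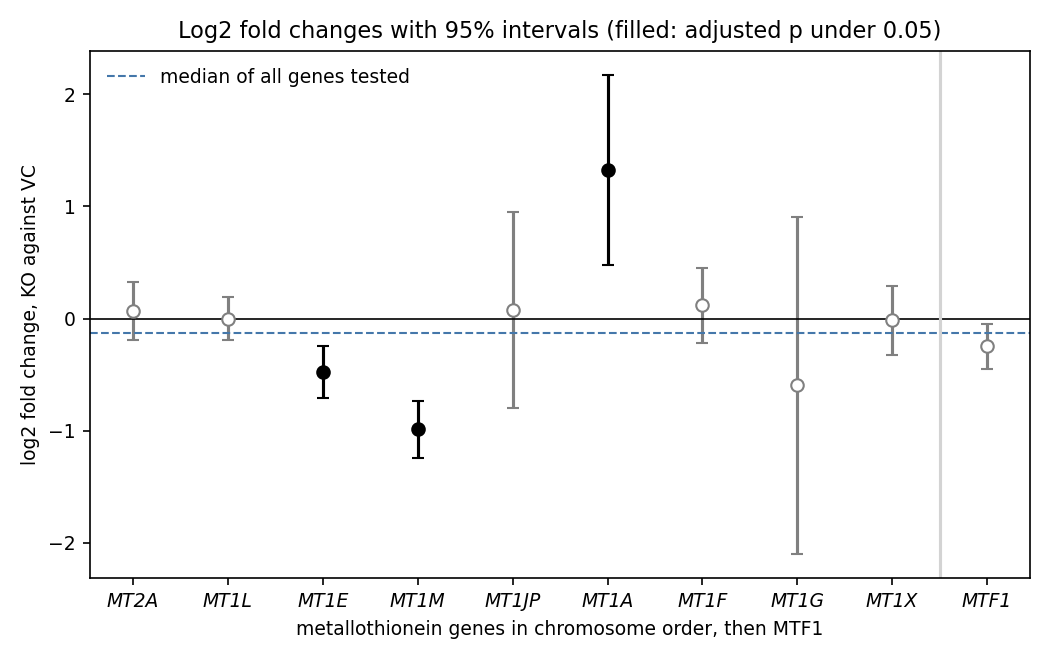
Log2 fold change of KO against VC (y axis) with its 95% interval for the 9 tested metallothionein genes in chromosome order and for MTF1 (x axis), with filled points at an adjusted p under 0.05 and a dashed line at the median of all tested genes, -0.13. MT1E and MT1M lie below 0 and MT1A above, while the intervals of the other 6 metallothionein genes include 0.

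The metallothioneins had log2 fold changes from -0.99 (MT1M) to 1.32 (MT1A). To compare them within a library, the difference of log2 signals between each MT1 gene and MT2A was taken, which cancels any factor common to both genes of a library. MT1M minus MT2A was lower by 1.05 in KO, MT1E minus MT2A was lower by 0.54 and MT1A minus MT2A was higher by 1.26, and the groups did not overlap for these 3 differences. The other 3 differences overlapped between the groups, with changes of 0.05 for MT1F, -0.66 for MT1G and -0.08 for MT1X. The exact two-sided permutation p was 0.1 for each of the first 3, the smallest that 3 against 3 libraries allow, and 0.163 after Benjamini-Hochberg adjustment over 13 differences, so none could pass the threshold in this design. Relative to MTF1, the groups did not overlap for 5 of 7 genes (exact permutation p = 0.1 each, adjusted 0.163). Among single genes with 6 values, the share without overlap was 59.3%, and the share among differences of 2 genes is not known. The difference from MTF1 was higher in KO for MT1A (1.57), MT1F (0.37) and MT2A (0.31) and lower for MT1M (-0.74) and MT1E (-0.23). Each of these includes the shift of MTF1 itself (log2 fold change -0.25), and the groups of MT1F and MT2A alone overlapped. MT1X minus MTF1 (0.23) and MT1G minus MTF1 (-0.35) overlapped.

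MT2A and MT1X are the metallothionein members whose upstream sequence was in the reference used, and both hold several matches to the core of the MRE. The 180 bases before the RefSeq start (GRCh38.p14, plus strand) are given for MT2A at chr16:56608404-56608583 and for MT1X at chr16:56682290-56682469, with capitals for the MRE core TGCACNC or TGCGCNC on either strand. The GENCODE models of both genes start further upstream.
MT2A: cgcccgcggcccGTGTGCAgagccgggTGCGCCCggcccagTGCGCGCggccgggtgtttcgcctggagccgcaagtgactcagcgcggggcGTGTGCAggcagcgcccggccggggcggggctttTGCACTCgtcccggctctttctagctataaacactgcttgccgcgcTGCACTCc
MT1X: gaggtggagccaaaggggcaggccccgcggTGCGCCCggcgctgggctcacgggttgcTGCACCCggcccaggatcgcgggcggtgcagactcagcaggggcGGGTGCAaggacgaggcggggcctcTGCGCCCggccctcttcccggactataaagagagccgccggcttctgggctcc

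In the 250 bases before the start, MT2A held 7 such matches, none overlapping another, and MT1X held 4. The metallothionein genes MT1H and MT1B, which are not members and could not be tested, held 8 and 3. Of 35116 promoter windows of that length, 24.8% held at least 1 match and 0.37% held 4 or more. MTF1 held 0 in its own window. A match to these letters is a description and not a bound site. MT2A and MT1X, both with several matches, had log2 fold changes of 0.07 and -0.02. The promoters of MT1A, MT1E, MT1F, MT1G and MT1M were not analysed here.

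Of 14 further metallothionein genes and pseudogenes, 2 could be tested and neither passed. MT1L, a metallothionein-like gene between MT2A and MT1E, gave 5.66, 5.66 and 5.72 in VC and 5.61, 5.78 and 5.65 in KO, a log2 fold change of -0.00085 with a 95% interval of -0.19 to 0.19 (limma, adjusted p = 0.994). The pseudogene MT1JP, between MT1M and MT1A, gave -2.17, -2.77 and -2.59 in VC and -2.93, -2.61 and -1.75 in KO (log2 fold change 0.08, adjusted p = 0.882). Along the chromosome, the 3 genes that passed the test therefore lie among genes that did not. MT3, the growth-inhibitory form known from brain, had values in VC replicates 1 and 2 alone (-4.47 and -3.33). MT1B, MT1DP, MT1IP and MT1HL1 each had a value in 1 library, between -5.02 and -4.28, and the other 7 had none.

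The genes around the cluster were examined for a shift of the whole region. Of 9 genes among the 5 nearest with a value on each side, 8 could be tested, with 1 called higher and 1 called lower (background 13.1% and 19.8%) and a median log2 fold change of -0.03. HERPUD1, an endoplasmic reticulum stress gene, rose by 3.29 (SE 0.25, limma adjusted p = 0.00592), and GNAO1, a G protein alpha subunit, fell by 1.08 (SE 0.17, adjusted p = 0.0137). HERPUD1 was called in all 6 fits that left out 1 library and GNAO1 in 4, with a highest adjusted p of 0.0548 without VC replicate 3. BBS2 (0.28), OGFOD1 (-0.11), NUDT21 (-0.13), NUP93 (-0.28), NLRC5 (0.12) and CPNE2 (0.04) did not pass, and CETP had a value in 1 library. Around MTF1, 1 of 10 neighbours was called higher and 2 were called lower, with a median of -0.18. INPP5B, an inositol phosphatase next to MTF1, rose by 0.69 (adjusted p = 0.0141), whereas CDCA8, a mitotic chromosomal passenger protein, fell by 0.85 (adjusted p = 0.0179) and MANEAL fell by 0.86 (adjusted p = 0.0264). Both lower calls were made in 2 of 6 such fits (highest adjusted p 0.0649 and 0.0827), and that of INPP5B in 4 (0.0576).

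**Figure D4:**
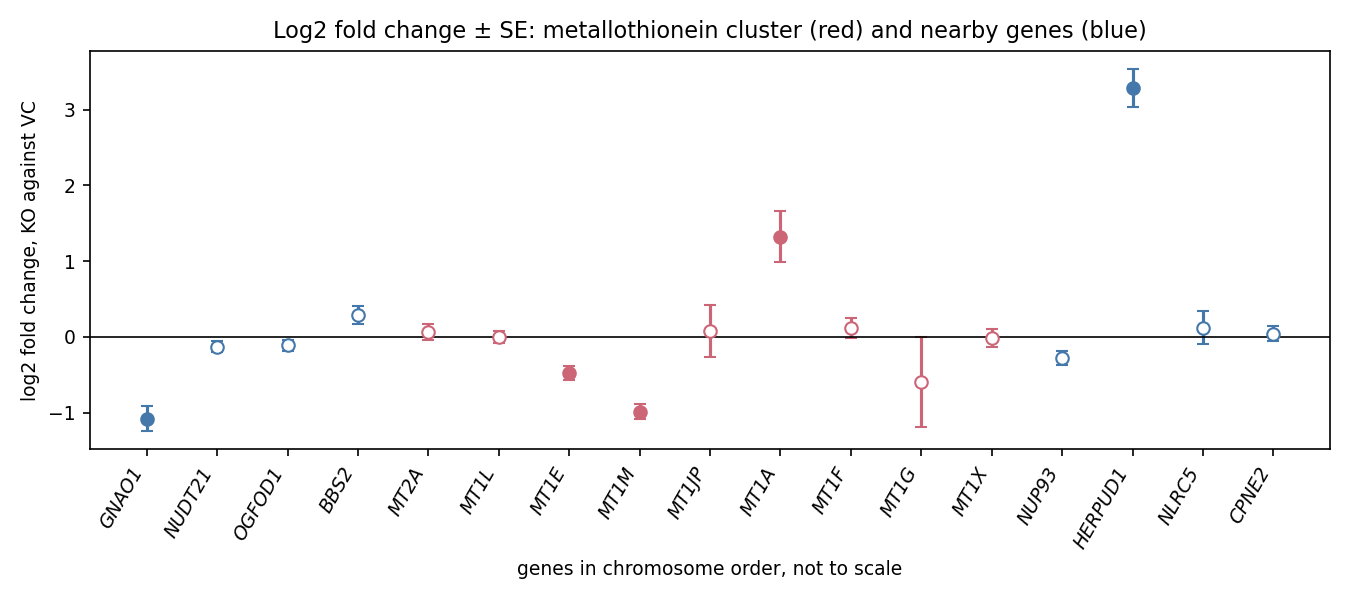
Log2 fold change of KO against VC ± SE (y axis) for the tested metallothionein genes (red) and 8 of their nearest neighbours (blue) in chromosome order (x axis, not to scale), filled at an adjusted p under 0.05. MT1E and MT1M are below 0 and MT1A is above 0 between genes close to 0, and HERPUD1 stands at 3.29.

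Genes that move zinc across membranes were next described, since they set the supply that MTF1 senses. Of 9 tested zinc exporters of the SLC30 family, 2 were called higher and 1 lower, with a median of -0.19, and 3 of 9 called is near the background of 32.9%. SLC30A1, the plasma membrane exporter and an MTF1 target, fell by 0.32 on the log2 scale (SE 0.072, limma adjusted p = 0.0281), from 2.37, 2.42 and 2.33 in VC to 2.07, 1.98 and 2.11 in KO. The Golgi exporter SLC30A5 rose by 0.30 (adjusted p = 0.0292) and SLC30A2 by 1.94 (adjusted p = 0.0279), the latter at signals of -7.55 to -4.56 and not called with 1 added to the linear signal (0.138). Of 11 tested SLC39 importers, 1 was called higher and 3 lower, with a median of -0.24. SLC39A14, a zinc, iron and manganese importer, rose by 0.70 (adjusted p = 0.0281), while SLC39A1 fell by 0.44 (0.0357), SLC39A9 by 0.42 (0.0192) and SLC39A11 by 0.40 (0.0304).

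Calls among other genes known to respond to MTF1 went in both directions. The list was not split by whether MTF1 raises or lowers a gene. Of 9 tested, 1 was called higher and 2 lower, again near the background of 32.9%, with a median of -0.03. NDRG1, a gene also induced by hypoxia and iron loss, rose by 2.08 (SE 0.39, limma adjusted p = 0.0191), and PGF, a placental growth factor, fell by 0.41 (adjusted p = 0.0387), SLC30A1 being the other lower call. Neither lower call held after median-centring, where the adjusted p was 0.0698 for SLC30A1 and 0.0507 for PGF. Both were called in 1 of the 6 fits that left out 1 library, SLC30A1 without KO replicate 1 (0.0261) and PGF without VC replicate 2 (0.0458). The higher call of NDRG1 was made in 2 of these 6 fits, with a highest adjusted p of 0.0626 without VC replicate 3. Of the 8 transcription factors known to act on metallothionein promoters, 2 were called higher and 0 lower. NFE2L2, the activator of the oxidant response, rose by 0.53 (adjusted p = 0.0182) and NR3C1, the glucocorticoid receptor, rose by 0.29 (adjusted p = 0.0366), while SP1, USF1, USF2, STAT3, EP300 and MTF1 did not pass.

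The glucocorticoid-responsive genes had 6 higher and 2 lower calls among 8 tested, beside backgrounds of 13.1% and 19.8%, with a median of 0.63. TSC22D3 rose by 1.60 (SE 0.19, limma adjusted p = 0.00942), DUSP1 by 1.29 (0.0132) and KLF9 by 0.78 (0.0164), whereas FKBP5, a standard target of the receptor, fell by 0.47 (0.0346) and ZBTB16 fell by 1.05 (0.0132), the latter from 4 values at or below -8.41 and not called with 1 added to the linear signal (0.967). With 1 library left out, TSC22D3 was called in 6 of 6 fits, DUSP1 in 5 and PER1 in 4. KLF9 and SGK1 were called in 3 each, and FKBP5 and NR3C1 in 1 each. ZBTB16 could be tested only without VC replicate 3 or without KO replicate 2, and was called in both fits. It has no value in those libraries, so neither fit left out any of its 4 values. The list holds NR3C1 itself, and the genes do not all respond to glucocorticoids alone. It was chosen with earlier results of these data known, so its counts beside the background are a description and not a test.

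Copper, iron and stress genes had calls in both directions, with 4 of 12, 3 of 8 and 4 of 9 called beside a background of 32.9%. Of 12 copper genes 2 were called higher and 2 lower: the importer SLC31A1 rose by 0.57 (limma, adjusted p = 0.0252) and the chaperone ATOX1 by 0.35 (0.0241), and the exporter ATP7B fell by 1.01 (0.0233) and the cytochrome oxidase assembly gene SCO1 by 0.62 (0.0241). Of 8 iron genes 1 was called higher and 2 lower, with HMOX1, which degrades heme, up by 1.66 (0.0114), the iron exporter SLC40A1 down from -0.46 to -1.55 on the log2 scale (0.0259) and ACO1, an iron regulatory protein, down from 4.12 to 3.65 (0.0167). Of 9 metal and oxidant stress genes 2 were higher, HMOX1 and the cystine importer SLC7A11 (1.61, adjusted p = 0.0101), and 2 were lower, the heat shock genes HSPA1A (-1.22, 0.0286) and HSPA1B (-1.04, 0.0308), a near-identical pair whose reads cannot be fully separated.

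Over all these lists 70 genes were tested, with 15 called higher and 13 called lower. The share called higher was 15 of 70 beside a background of 13.1%, and the share called lower was 13 of 70 beside 19.8%. As the lists were chosen with earlier results of these data known, these shares are a description and not a test. The count of 28 depended on which library was left out. It was 5 without VC replicate 1, 6 without VC replicate 2, 5 without VC replicate 3, 30 without KO replicate 1, 21 without KO replicate 2 and 8 without KO replicate 3. Over all genes tested the count moved alike, from 6354 to 1403, 2450, 1223, 8669, 4393 and 2018 in the same order. HMOX1, SLC7A11 and TSC22D3 were called in all 6 of these fits, and the other 25 in fewer.

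**Figure D5:**
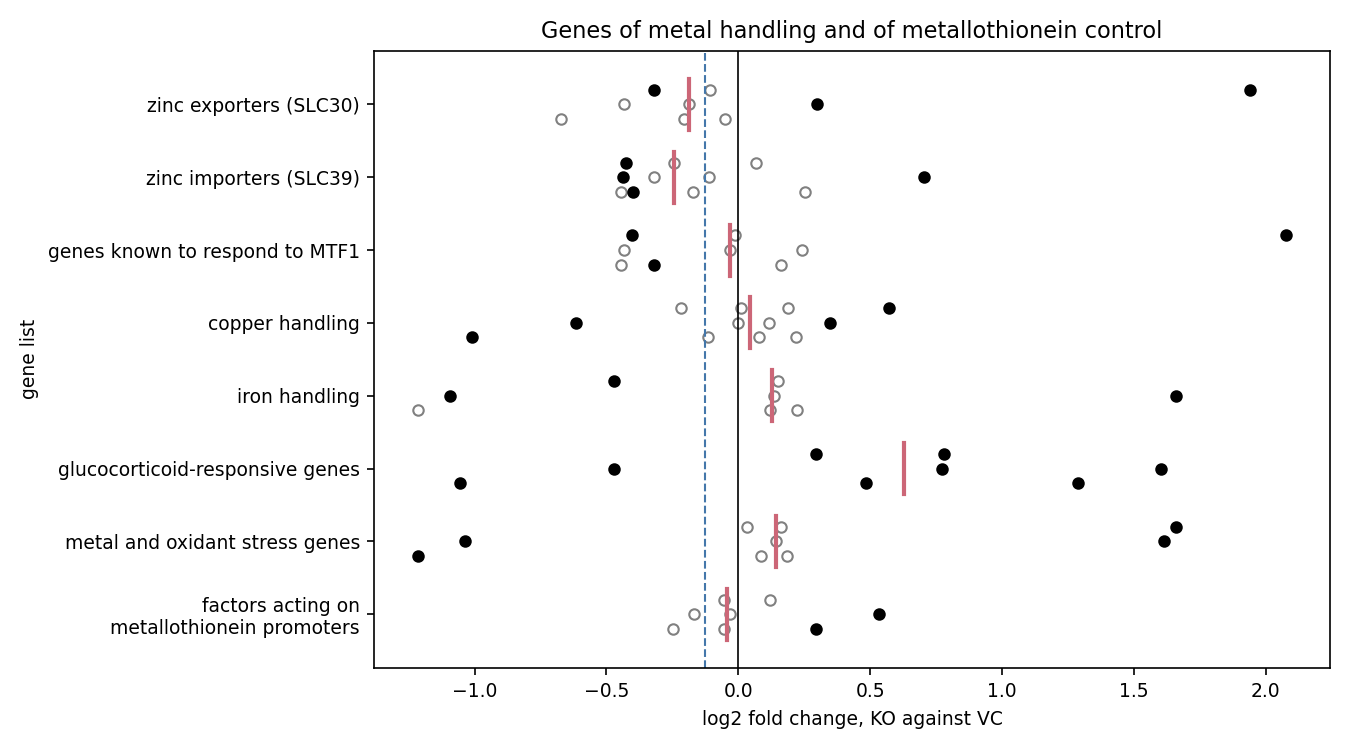
Log2 fold change of KO against VC (x axis) for the tested genes of 8 lists (y axis; 1 point per gene, spread vertically for visibility), filled at an adjusted p under 0.05, with red bars at the list medians and a dashed line at the median of all tested genes, -0.13. Calls lie on both sides of 0 in every list but that of factors acting on metallothionein promoters, and the median of the glucocorticoid-responsive genes is 0.63. All lists were chosen with earlier results of these data known.

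Last, the genes whose log2 signals followed MT2A and MTF1 over the 6 libraries were listed, by Pearson's r among 9652 genes with 6 values and a mean in the upper 50%. For MT2A they were CLBA1 (r = 0.982), TPGS2 (0.976), GALK1 (0.966), SEZ6L2 (0.966) and DCXR (0.961), and 9 genes exceeded 0.95. For MTF1 they were ESPL1 (r = 0.999), CENPL (0.999), FNTB (0.999), C21orf58 (0.999) and MSRB3 (0.998), with 1898 genes above 0.95. The 5 genes nearest to MTF1 had log2 fold changes from -1.10 to -0.52 and the 5 nearest to MT2A from 0.04 to 0.12. The 6 libraries form 2 groups by treatment, and their colonies are not given, so these correlations describe the ordering of the libraries and no more.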

How the data were processed

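The authors processed the RNA-seq reads and deposited log2 signals per gene symbol, quantile-normalized between the 6 libraries; the submitters' processing notes name CASAVA, STAR, Partek and GRCh38.p13, and the study's methods name Partek Genomics Suite beside the Server and Workbench versions of CLC Genomics. Versions, annotation, read length and the linear unit are not given in the sources used here. The labels name a stranded mRNA kit and the methods total RNA. Empty cells were left as missing values. Quantile normalization removes any shift common to all genes, and signals near the low end are imprecise.

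The 3 VC and 3 KO libraries were grouped by their titles. Genes with at least 2 values per group (19306) were fitted with limma 3.58.1 in R 4.3.3, with empirical Bayes moderation and no trend, two-sided, and Benjamini-Hochberg adjustment over all genes tested; an adjusted p under 0.05 is a call. The script was tested on simulated data. Within-library differences were compared by an exact permutation test. The members and the 9 gene lists were chosen with earlier results of these data known. Named in the text are all members, the called genes of the lists (the 3 largest changes in each direction where over 6 were called), other metallothioneins with a value, the 5 nearest genes with a value on each side of the cluster and of MTF1 in RefSeq order, the 5 genes most like MT2A and MTF1, and CNTNAP4; 1 neighbouring gene and 1 coding sequence are not reported here. Coding sequences came from GENCODE release 29, and promoters from RefSeq (GRCh38.p14), which matched 3 of the 8 members. Biopython 1.88 aligned the sequences. Alternatives were median-centring on the genes with 6 values, 1 added to the linear signal, another round of quantile normalization, stricter filters, other or no moderation, unadjusted p-values, a replicate block and each library left out.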

Additional observations from a re-analysis of the deposited data

How the results depend on the processing

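The direction of MT1M, MT1E, MT1A and MTF1 held under every alternative in which they were tested (MT1A and MT1G are not in the upper 50% of mean signal), and MT1M was called in each. MT1E lost its call only under the block (adjusted p = 0.0696) and without single libraries, and MT1A also under the block (0.0820). With the replicate number as a block, the count of called genes fell from 6354 to 1533 over all genes, from 3 to 1 (MT1M) over the members, and from 28 to 3 over the other lists; deviations of same-numbered libraries correlated at -0.0074 to 0.023, so the numbers were not taken to pair samples. Leaving out 1 library gave 1223 to 8669 calls over all genes, 1 to 3 over the members and 5 to 30 over the lists; these fits have fewer samples. The sign turned for MT1X with median-centring (0.068), further quantile normalization (0.0079), and without VC replicate 3 (0.056), KO replicate 1 (0.041) or KO replicate 3 (0.030), for MT2A without KO replicate 2 (-0.013), and for MT1G minus MTF1 with 1 added to the linear signal (0.072) or without KO replicate 3 (0.153). Over the fits without 1 library these ran from -0.117 to 0.056 for MT1X, -0.013 to 0.129 for MT2A and -0.926 to 0.153 for MT1G minus MTF1. MT1X and MT2A were not called in any of them. For MT1G minus MTF1 only the size of the difference was taken. The median over all genes moved from -0.13 to -0.02 with 1 added and to -0.04 with median-centring. With no read counts, the precision of low signals such as MT1A and MT1G cannot be stated beyond the spread of 3 libraries.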
